A study of Mus musculus with 48 samples.

Results

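The 40 genes described here belong to the muscle extracellular matrix: non-collagen matrix proteins, the enzymes that modify and crosslink collagen, matrix proteases with their inhibitors, and genes of fibroblasts and tendon cells. They were chosen by gene symbol from the deposited count table, in which 40 of 54532 genes carry a listed symbol, and all 40 passed the filter on low counts. Gastrocnemius, a calf muscle made mainly of fast-twitch fibres, was sampled from 48 mice after 21 days of daily oral gavage with perfluorooctane sulfonate (PFOS), a persistent fluorinated surfactant, at 0, 1 or 10 mg/kg/day. Each mouse gave 1 RNA-seq library. The mice were males and females labelled hCYP2B6-Tg, with a human CYP2B6 transgene, or Cyp2b-null, lacking mouse Cyp2b genes. The sample labels do not say which genes of the Cyp2b family are missing. The sources used here do not give the promoter of the transgene, whether the hCYP2B6-Tg mice also lack the mouse genes, the age of the mice or the gavage vehicle. Sex and genotype together define 4 strata. Each held 4 mice per dose, except for 5 undosed hCYP2B6-Tg males and, at the top dose, 3 Cyp2b-null males.

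The extracellular matrix of muscle surrounds fibres and bundles and passes force to the tendon. Fibroblasts and tendon cells make most of it: procollagen is hydroxylated by prolyl and lysyl hydroxylases, folded with the help of the chaperone HSP47 (Serpinh1), trimmed outside the cell with the help of Pcolce, and crosslinked by lysyl oxidases. Small leucine-rich proteoglycans such as decorin and lumican bind collagen fibrils and set their width, fibrillins and fibulins build elastic fibres, and metalloproteases remodel the network under the control of TIMP inhibitors.

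Total counts ran from 11571142 to 19921061 per library, so that 3 counts corresponded to between 0.151 and 0.259 CPM. CPM is a gene's count on a per-million scale of its library total, here with totals scaled by the TMM method. The 40 genes together took 0.0482 to 0.229% of all counts at 0 mg/kg/day, with a median of 0.106%, and 0.097 to 0.172% with a median of 0.124% at 10 mg/kg/day. Summed markers of muscle fibres (10 genes, among them Acta1, Ckm and Myh4) stood at 159100 to 229000 CPM at 0 and 99960 to 185000 CPM at 10 mg/kg/day, so the defining genes of the labelled tissue were abundant at both doses. The extraction text of the labels names liver, but the sum of 6 liver markers had a median of 0.154 CPM at 0 mg/kg/day (0 to 22.4) and stood at 2754 CPM in 1 library at 1 mg/kg/day. Libraries stood apart in 3 ways. The library of hCYP2B6-Tg male replicate 5 at 0 mg/kg/day held the highest value of all 48 for 16 of the 40 genes, and replicate 4 of the same group held the lowest for 15. The first had the highest sum of 11 tendon markers (388 CPM), and the next was replicate 1 of the undosed Cyp2b-null males (286 CPM), against a median of 96.8 CPM at that dose. A further 6 libraries, left out below as those with Alb or Glycam1, were that 1, from the Cyp2b-null males (replicate 2), with 27859 counts of the liver gene Alb, and 5 with 41 to 790 counts of Glycam1, a gene of lymph node vessels, against at most 2 elsewhere. Control replicate 2 of the Cyp2b-null males, with 224 counts of Alb, was not among them. Of the 5 with Glycam1, only hCYP2B6-Tg female replicate 4 was at 0 mg/kg/day. The others were at 10 mg/kg/day, 1 in each stratum, so leaving out the 6 removes more treated mice than controls. Within each stratum the numbers in the library names did not overlap between doses, and the labels do not say what these numbers count.

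Without PFOS, Sparc, a collagen-binding glycoprotein, was the most abundant of the 40 per length at 43.4 ± 15.0 CPM per kilobase (SD, n = 17), followed by decorin (Dcn) at 32.6 ± 14.7 and Timp2 at 21.5 ± 6.49. Next came Serpinh1 at 15.3 ± 4.40, Thbs4 at 12.4 ± 7.05 and P4ha1 at 10.3 ± 1.74 CPM per kilobase. The lowest were Postn at 0.629 ± 0.404, Tnc at 0.206 ± 0.284 and Timp1 at 0.175 ± 0.160 CPM per kilobase. Among all neighbours in this order, only Postn and Tnc differed by more than the SD between mice. Spread differed widely between genes: P4ha2, a prolyl hydroxylase subunit, lay between 21.7 and 29.4 CPM over the 17 mice, whereas Fmod, the tendon proteoglycan fibromodulin, lay between 0.176 and 167.6 CPM.

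At 10 mg/kg/day PFOS the matrix genes moved in both directions. Of 9 collagen-processing genes 7 fell, among them Loxl2 and Serpinh1. Kera, Tnmd and the microfibril gene Mfap4 fell from low levels, and 6 genes rose: decorin, lysyl oxidase (Lox), the membrane metalloprotease Mmp14, its inhibitor Timp3, fibulin 1 (Fbln1) and the fibroblast receptor Pdgfra. In the comparison with 0 mg/kg/day averaged over the 4 strata, 22 of the 40 genes changed (edgeR quasi-likelihood test, Benjamini-Hochberg adjusted p under 0.05 over 15583 genes), 16 lower and 6 higher. Of all genes tested 47.5% changed, 22.5% lower and 25% higher. Kera, Mfap4 and Tnmd were at least 2-fold lower and passed, as were 2.43% of all genes. The median log2 fold change was -0.28 over the 40 and 0.04 over all genes. In no gene were the 15 libraries at 10 mg/kg/day all below or all above the 17 at 0, a separation found downwards in 0.738% and upwards in 0.27% of all genes. The mitochondrial share of counts moved with dose, from 8.65 to 13.0% (median 10.4%) at 0 to 5.53 to 9.78% (median 7.58%) at 10 mg/kg/day, and its part in the change of these genes was not tested. In bulk muscle, fewer cells of a type and less RNA per cell cannot be told apart. The split between falls and rises moved with the scaling. With unscaled totals the median of all genes was 0.26, and 8 of the 40 were lower and 10 higher, against 1642 lower and 7520 higher of all genes, where TMM gave 3511 and 3892.

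**Figure D1:**
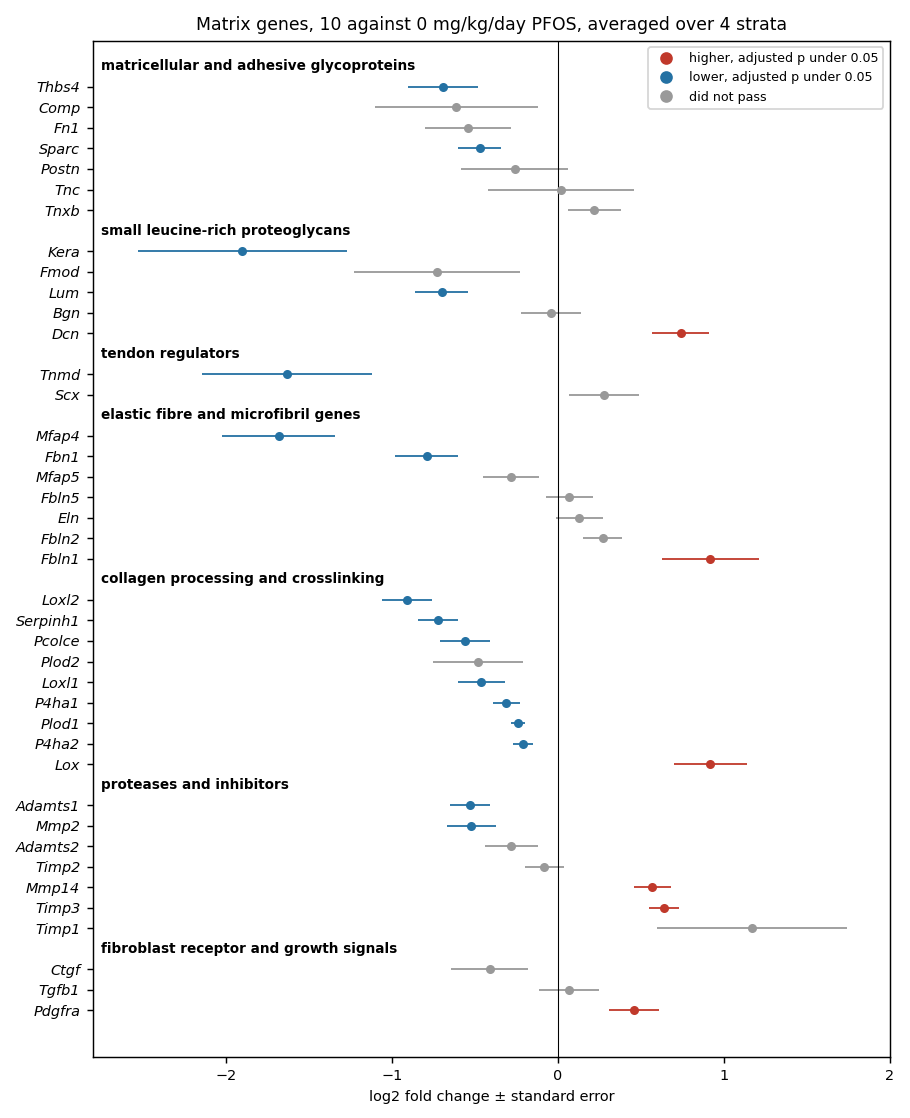
Log2 fold change with standard error (x axis) of the 40 matrix genes at 10 against 0 mg/kg/day PFOS, averaged over 4 strata and grouped by role; blue and red mark an adjusted p under 0.05. Collagen processing holds 7 lower genes and 1 higher gene (Lox at 0.92), and the largest falls are Kera at -1.9, Mfap4 at -1.68 and Tnmd at -1.63.

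Collagen processing and crosslinking showed the most falls. Of its 9 genes 7 fell, 1 rose and 1 did not pass, with a median of -0.46. These are averages over strata. Within hCYP2B6-Tg mice 8 were lower in females (13.5% of all genes) and 0 in males (10.6%). Within Cyp2b-null mice 1 was lower in females (6.87%) and 2 in males (8.36%). Such counts are not a test of a difference between strata. Loxl2, a lysyl oxidase-like crosslinking enzyme, lay between 2.19 and 9.63 CPM with a median of 6.61 at 0 mg/kg/day and between 1.83 and 6.24 CPM with a median of 3.27 at 10 mg/kg/day. Most treated mice were below most controls, although the ranges overlapped, and Loxl2 fell by 0.91 ± 0.15 (log2, standard error; adjusted p = 2.68e-06). Serpinh1, the collagen chaperone, had a median of 34.3 CPM (22.1 to 57.5) at 0 and of 22.2 CPM (10.8 to 52.1) at 10 mg/kg/day. Its fall was 0.72 ± 0.12 (log2; edgeR adjusted p = 4.96e-06), and the treated mice above 30 CPM were all Cyp2b-null females. Pcolce, the enhancer of procollagen C-proteinase, fell by 0.56 ± 0.15 and Loxl1, which crosslinks elastin, by 0.46 ± 0.14. The hydroxylases moved less: P4ha1 fell by 0.31 ± 0.08, P4ha2 by 0.21 ± 0.06 and Plod1, a lysyl hydroxylase, by 0.24 ± 0.04. Plod2, which hydroxylates the telopeptide lysines of collagen, had a log2 fold change of -0.48 ± 0.27 and did not pass (edgeR adjusted p = 0.139). On unscaled library totals Loxl2 (-0.71) and Serpinh1 (-0.49) still fell, but Loxl1, P4ha1, P4ha2, Plod1 and Pcolce no longer passed, and P4ha2 stood at 0.01. Without the 6 libraries with Alb or Glycam1 transcripts P4ha2 also lost its call (-0.16, edgeR adjusted p = 0.0604).

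Lox, the lysyl oxidase that crosslinks both collagen and elastin, went the other way from Loxl1 and Loxl2. Its lowest, median and highest levels were 2.11, 4.45 and 16.6 CPM at 0 and 4.59, 12.5 and 19.89 CPM at 10 mg/kg/day. Only 2 of the 17 controls exceeded 10 CPM, namely hCYP2B6-Tg male replicate 5 and Cyp2b-null male replicate 1, which also had the highest tendon marker sums. Lox rose by 0.92 ± 0.22 (log2; edgeR adjusted p = 0.000863).

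**Figure D2:**
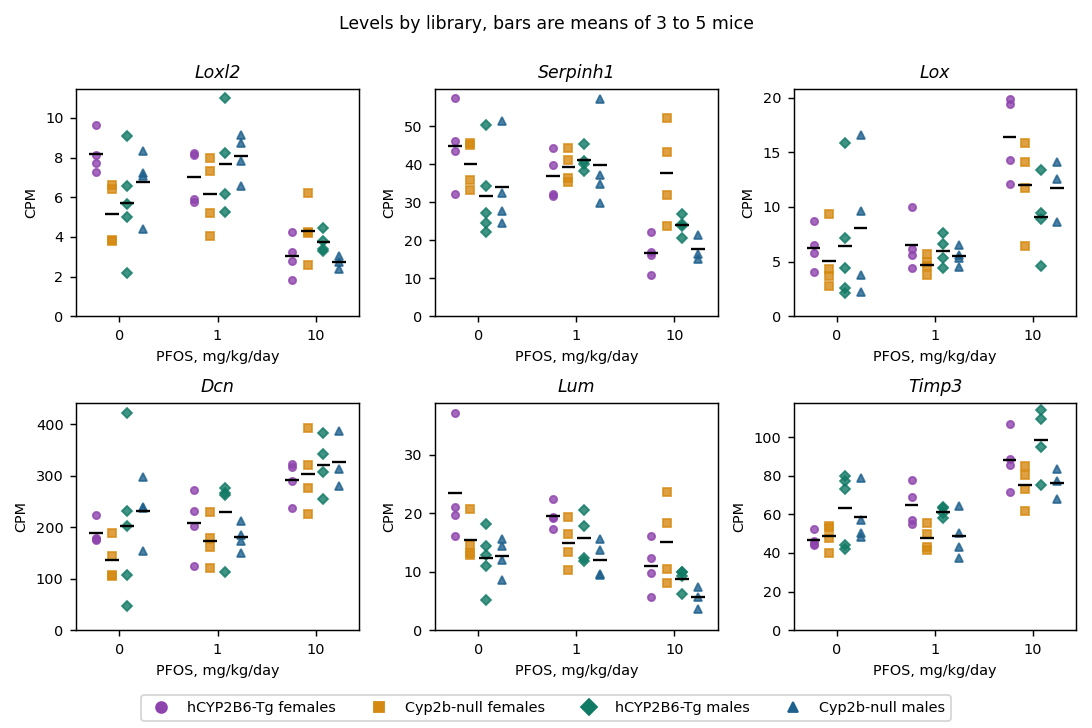
Levels in CPM (y axis, from 0) of 6 matrix genes in every library by PFOS dose (x axis); symbols and colours mark the 4 strata, and black bars are the means of 3 to 5 mice. Loxl2, Serpinh1 and Lum sit lower and Lox, Dcn and Timp3 higher at 10 mg/kg/day, while no gene passed between 0 and 1 mg/kg/day; in Cyp2b-null females Serpinh1 stays at 23.8 to 52.1 CPM.

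Promoter sequences are shown for 3 collagen-maturation genes that fell and for the protease and inhibitor that rose, so that the start regions of genes moving in opposite directions can be read side by side. The stretches are from RefSeq on GRCm38.p6 and end before both the RefSeq start and the start in the count table. Capitals mark matches on either strand. The TATA box was searched as TATAAA and the CCAAT box as CCAAT. For the AP-1 site the letters were TGANTCA, and for the GC box they were GGGCGG. The Serpinh1 stretch is chr7:99353240-99353489 on the minus strand, that of P4ha1 is chr10:59323046-59323295 on the plus strand, and that of Plod1 is chr4:147936777-147937026 on the minus strand. Mmp14 is shown over chr14:54431348-54431597 and Timp3 over chr10:86300162-86300371, both on the plus strand.
Serpinh1: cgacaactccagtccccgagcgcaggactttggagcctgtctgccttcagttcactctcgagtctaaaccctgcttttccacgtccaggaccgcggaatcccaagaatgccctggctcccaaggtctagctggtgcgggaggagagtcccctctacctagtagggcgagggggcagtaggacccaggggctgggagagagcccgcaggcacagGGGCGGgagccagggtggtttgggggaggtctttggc
P4ha1: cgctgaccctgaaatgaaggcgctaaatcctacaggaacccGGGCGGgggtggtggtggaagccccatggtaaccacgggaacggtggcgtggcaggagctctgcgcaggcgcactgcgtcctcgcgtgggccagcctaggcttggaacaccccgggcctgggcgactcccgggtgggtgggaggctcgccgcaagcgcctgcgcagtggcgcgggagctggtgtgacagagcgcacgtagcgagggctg
Plod1: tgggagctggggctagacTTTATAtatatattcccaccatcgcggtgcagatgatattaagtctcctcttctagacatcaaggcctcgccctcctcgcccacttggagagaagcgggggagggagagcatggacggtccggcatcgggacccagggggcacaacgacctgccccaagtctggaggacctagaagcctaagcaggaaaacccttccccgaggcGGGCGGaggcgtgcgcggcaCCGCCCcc
Mmp14: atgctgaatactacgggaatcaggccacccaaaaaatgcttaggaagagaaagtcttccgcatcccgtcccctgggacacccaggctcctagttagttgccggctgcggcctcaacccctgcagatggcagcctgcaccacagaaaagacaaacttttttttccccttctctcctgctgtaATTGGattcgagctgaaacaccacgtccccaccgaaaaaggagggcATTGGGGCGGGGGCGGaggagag
Timp3: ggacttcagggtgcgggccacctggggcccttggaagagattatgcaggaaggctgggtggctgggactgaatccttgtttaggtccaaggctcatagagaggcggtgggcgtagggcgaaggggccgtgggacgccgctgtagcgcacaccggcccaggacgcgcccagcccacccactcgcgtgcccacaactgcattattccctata
A GC box lies in the stretches of Serpinh1, P4ha1, Plod1 and Mmp14, and 33.0% of 32536 RefSeq windows of 250 bases hold it. CCAAT boxes are in that of Mmp14 alone among the 5, where 1 of them overlaps a GC box (33.8% of windows). A TATA box is in that of Plod1, its first base 232 bases before the end of the stretch (12.3% of windows). The Timp3 stretch of 210 bases holds no match to any of these motifs, which 26.9% (GC box), 29.8% (CCAAT box), 9.5% (TATA box) and 5.82% (AP-1 site) of windows of that length do. None of the 5 holds an AP-1 site (6.73% of windows of 250 bases). These matches describe letters in a short window and are not evidence of binding. Promoter windows were matched by symbol for 26 of the 40 genes.

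Among the small leucine-rich proteoglycans, decorin rose while lumican and keratocan fell. Dcn, Lum and Kera lie in this order on the plus strand of chromosome 10 (GRCm38): chr10:97479609-97518143, chr10:97565128-97572703 and chr10:97606879-97613692, and between them the table lists a single other gene, a lincRNA with 1 count in all libraries. Decorin lay between 47.8 and 422.3 CPM with a median of 179.8 at 0, and between 225.3 and 393.2 CPM with a median of 312.9 at 10 mg/kg/day. The treated mice sat above most controls and in a narrower range, and Dcn rose by 0.74 ± 0.17 (log2; edgeR adjusted p = 0.000402). Lumican (Lum) had a median of 14.4 CPM (5.18 to 37.2) at 0 and of 9.75 CPM (3.69 to 23.7) at 10 mg/kg/day, a fall of 0.70 ± 0.16 (log2; edgeR adjusted p = 0.000439). Both directions stayed on unscaled totals, with Dcn at 0.94 and Lum at -0.50. Kera, the keratan sulfate proteoglycan of cornea and tendon, was near the limit of counting: its median was 0.873 CPM (0 to 8.42) at 0 and 0.198 CPM (0 to 2.57) at 10 mg/kg/day. It fell by 1.9 ± 0.63 (log2; edgeR adjusted p = 0.0124). Biglycan (Bgn) at -0.04 ± 0.18 and fibromodulin at -0.73 ± 0.50 did not pass.

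Among the tendon-associated genes the calls for Kera and Tnmd rested on few libraries, while that for Thbs4 passed without the 2 libraries of highest tendon sum (-0.48, edgeR adjusted p = 0.0455). Tenomodulin (Tnmd), a membrane protein of mature tendon cells, had a median of 0.832 CPM (0 to 8.80) at 0 and of 0.355 CPM (0.0676 to 2.83) at 10 mg/kg/day. It fell by 1.63 ± 0.51 (log2; edgeR adjusted p = 0.00759). Scx, the transcription factor scleraxis that drives tendon formation, stood at 0.28 ± 0.21 and did not pass, though it did on unscaled totals (0.49, edgeR adjusted p = 0.0423). The span of Scx (3718 counts) overlaps that of Bop1 (22592 counts) on the other strand. Whether their exons overlap was not examined and the use of strand in counting is not given, so how far their reads mix is unknown. Thrombospondin 4 (Thbs4), a glycoprotein of tendon and muscle junctions, fell by 0.69 ± 0.21, and Comp, its relative in cartilage and tendon, stood at -0.61 ± 0.49 without passing. These values are averages over strata. In Cyp2b-null females Thbs4 (0.92), Tnmd (0.78) and Kera (0.58) stood above 0 without passing, and in the other 3 strata below 0. The 11 tendon markers, which include 6 of the 40 genes, summed to 64.8 to 388 CPM (median 96.8) at 0 and to 33.7 to 155.2 CPM (median 58.0) at 10 mg/kg/day. Among the 11, 6 were lower and none higher, against 22.5% and 25% of all genes. Without the 2 libraries of highest tendon sum Kera stood at -1.39 (edgeR adjusted p = 0.0584) and Tnmd at -1.01 (edgeR adjusted p = 0.0658), so both calls ended. Both libraries are controls, picked by a sum that includes Kera, Tnmd and Thbs4. Leaving them out lowers the control levels of these genes in advance, so it is not an independent check of their calls. Without the 6 libraries with Alb or Glycam1 Kera stood at -1.57 (edgeR adjusted p = 0.0772). With limma voom, Kera (-1.53, adjusted p = 0.155) and Tnmd (-1.27, adjusted p = 0.0725) did not pass either. How much tendon each sample held was not tested.

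**Figure D3:**
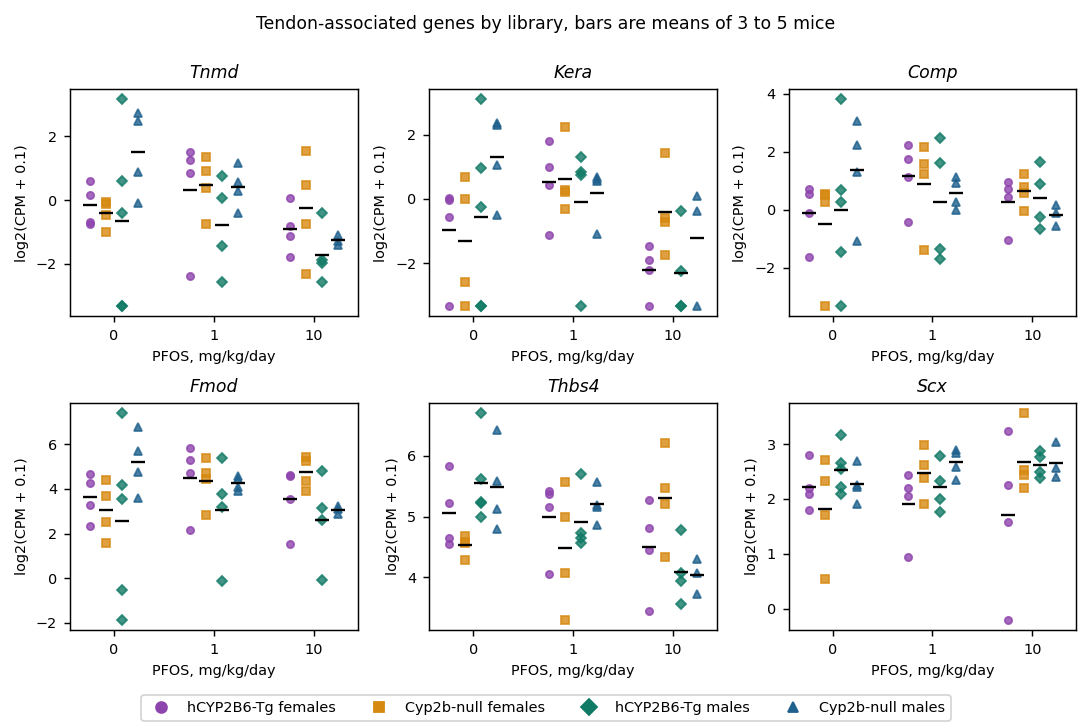
Level as log2(CPM + 0.1) (y axis) of 6 tendon-associated genes in every library by PFOS dose (x axis); symbols mark the 4 strata and black bars are means on this scale of 3 to 5 mice. A single hCYP2B6-Tg male at 0 mg/kg/day is the highest control for each of them except Scx, with Fmod at 167.6 and Tnmd at 8.80 CPM, and the spread at 0 spans most of the range.

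Of the other adhesive glycoproteins, Sparc fell by 0.47 ± 0.13 (log2; edgeR adjusted p = 0.00217), from a median of 144.8 CPM (93.4 to 293.5) at 0 to 120.2 CPM (91.9 to 153.0) at 10 mg/kg/day. The lowest values of both doses lay close together, and the highest controls exceeded every treated mouse. On unscaled totals neither Sparc (-0.26, edgeR adjusted p = 0.133) nor Thbs4 (-0.47, edgeR adjusted p = 0.0704) passed. Fibronectin (Fn1), the scaffold on which collagen is laid down, stood at -0.54 ± 0.26 (edgeR adjusted p = 0.0848). Periostin (Postn) at -0.26 ± 0.32, tenascin C (Tnc) at 0.02 ± 0.44 and tenascin X (Tnxb) at 0.22 ± 0.16 did not pass. In all 2 of 7 genes in this group fell and none rose, against 22.5% lower and 25% higher of all genes.

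Of 7 elastic fibre and microfibril genes 2 fell, 1 rose and 4 did not pass, where 22.5% of all genes fell and 25% rose. Mfap4, a microfibril-associated glycoprotein, had a median of 2.12 CPM (0.170 to 6.66) at 0 and of 0.688 CPM (0.397 to 1.29) at 10 mg/kg/day. All treated mice lay in the lower part of the control range, and the gene fell by 1.68 ± 0.34 (log2; edgeR adjusted p = 8.72e-05). The span of Mfap4 (1171 counts) overlaps that of Mapk7 (3173 counts) on the other strand, and how far their reads mix was not examined. Fibrillin 1 (Fbn1), the backbone of microfibrils, fell by 0.79 ± 0.19 (log2; edgeR adjusted p = 0.000659), from a median of 32.9 CPM (8.95 to 70.3) to 16.2 CPM (10.6 to 33.1). Fibulin 1 (Fbln1), which binds elastic fibres and fibronectin, rose by 0.92 ± 0.29 (log2; edgeR adjusted p = 0.00858), with a median of 2.85 CPM (0.176 to 13.7) at 0 and 6.08 CPM (3.14 to 12.1) at 10 mg/kg/day. Its highest value of all was nevertheless a control, hCYP2B6-Tg male replicate 5. Elastin itself (Eln, 0.13 ± 0.14), Fbln2 (0.27 ± 0.12), Fbln5 (0.07 ± 0.14) and Mfap5 (-0.28 ± 0.17) did not pass. Fbln2 was close to the threshold (edgeR adjusted p = 0.0603) and passed as higher when any of 5 libraries was left out, among them hCYP2B6-Tg male replicates 5 at 0 and 3 at 10 mg/kg/day.

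Of 7 proteases and inhibitors 2 rose and 2 fell, shares close to the 25% and 22.5% of all genes. Timp3, the inhibitor that is bound to the matrix, gave the smallest p of the 40 genes. It lay between 40.04 and 79.8 CPM with a median of 50.1 at 0 and between 61.9 and 113.9 CPM with a median of 83.7 at 10 mg/kg/day. It rose by 0.64 ± 0.09 (log2; edgeR adjusted p = 1.67e-07). Mmp14, the membrane-anchored collagenase that also activates pro-MMP2, rose by 0.57 ± 0.11 (log2; edgeR adjusted p = 6.64e-05), from a median of 10.9 CPM (7.71 to 14.9) to 17.2 CPM (8.68 to 24.3). Its substrate Mmp2, a gelatinase, fell by 0.52 ± 0.15 (log2; edgeR adjusted p = 0.0035), from a median of 27.6 CPM (11.1 to 54.3) to 18.3 CPM (13.0 to 27.5), though it did not pass on unscaled totals (-0.31, edgeR adjusted p = 0.0999). Adamts1, a protease of versican and other proteoglycans, fell by 0.53 ± 0.12 (log2; edgeR adjusted p = 0.000341), from a median of 38.8 CPM (26.6 to 68.3) to 30.7 CPM (17.0 to 66.2). On the other strand, Timp3 (46376 counts) overlaps Syn3 (328 counts), Adamts2 (7772 counts) overlaps Gm12199 (1342 counts) and Timp1 overlaps Syn1 (58 counts). Timp2 (-0.08 ± 0.12), which takes part in the activation of MMP2, and Adamts2 (-0.28 ± 0.16), the procollagen N-proteinase, did not pass. Timp1, an inhibitor induced in injured tissue, had 218 counts in all 48 libraries and stood at 1.17 ± 0.57 (edgeR adjusted p = 0.0878).

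Of the 3 fibroblast receptor and growth genes, Pdgfra, the receptor that marks fibro-adipogenic cells of muscle, rose by 0.46 ± 0.15 (log2; edgeR adjusted p = 0.0115). Its median was 17.3 CPM (5.62 to 30.4) at 0 and 23.3 CPM (13.1 to 30.8) at 10 mg/kg/day. Tgfb1, the main fibrogenic cytokine, stood at 0.07 ± 0.18 and its target Ctgf at -0.41 ± 0.23, and neither passed. Marker lists of cell types were read beside 22.5% lower and 25% higher of all genes. Of 12 fibroblast markers, which include Pdgfra and Mfap5, 3 were higher (Pdgfra, Gsn, Dpep1) and 1 lower (Dpt), and their sum was 267.9 to 1403 CPM at 0 and 714.7 to 1085 CPM at 10 mg/kg/day. Of 12 adipocyte markers 11 were higher, and their sum went from 528.6 to 1099 CPM (median 803) to 806.6 to 3504 CPM (median 1518). Plin4, Pnpla2 and Fabp4 made most of this sum at 0 mg/kg/day (means 331.4, 231.5 and 134.6 of 772.1 CPM). Their log2 fold changes were 0.66, 0.83 and 0.75, against a median of 2.25 over the 12. Of 10 muscle fibre markers 7 were lower and 1 higher, and of 8 tested macrophage markers 4 were higher. Endothelial markers had 2 lower and 2 higher of 9, and smooth muscle and pericyte markers 1 lower and 1 higher of 9. Schwann and nerve markers had 1 higher of 8 and none lower. Of 6 lymph node markers 5 were higher, with a median log2 fold change of 2.87, and their sum was 1.10 to 60.9 CPM (median 1.58) at 0 and 0.414 to 102.7 CPM (median 2.15) at 10 mg/kg/day. The part of these shifts in the matrix genes was not tested.

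The other genes of matrix and its control were read from lists, whose counts stand beside 22.5% lower and 25% higher of all genes. Of 12 fibrillar and associated collagens, the substrates of the enzymes above, 10 fell and none rose, with a median of -0.90 (Col3a1 -2.32 ± 0.21, Col1a1 -2.05 ± 0.27, Col15a1 -1.73 ± 0.12, Col6a2 -1.19 ± 0.15). Of 12 basement membrane genes 4 fell (Col4a1, Col4a2, Lamb2, Hspg2) and 1 rose (Lama5). Further collagen-processing enzymes did not follow the 9 genes above in count: of 15 tested, 2 fell (P3h1 and Bmp1, the procollagen C-proteinase at -0.45 ± 0.11) and 4 rose (P4hb, Ppib, Pcolce2, Tgm2), with a median of -0.06. P4hb, the subunit shared by prolyl hydroxylases and also a general disulfide isomerase, rose by 0.49 ± 0.07. Of 16 further proteases and inhibitors 2 fell (Mmp15 -0.88 ± 0.10 and Ctsk) and 4 rose, among them Mmp11 (0.99 ± 0.18), Mmp19 and Adamts20. Of 17 tested further proteoglycans and glycoproteins 1 fell (Sparcl1, -0.73 ± 0.09) and 4 rose (Smoc1, Thbs1, Thbs2, Omd). In the TGF-beta pathway 7 of 16 genes rose and 4 fell: the receptors Tgfbr1 (0.41 ± 0.06), Tgfbr2 (0.52 ± 0.11) and Tgfbr3 (0.82 ± 0.11) rose, and the signal carrier Smad3 fell by 0.95 ± 0.11. Of 12 matrix receptors of muscle 5 fell, among them sarcospan (Sspn, -0.68 ± 0.06) and Itgav (-0.44 ± 0.05), and 2 rose, Itga5 and Itga7.

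**Figure D4:**
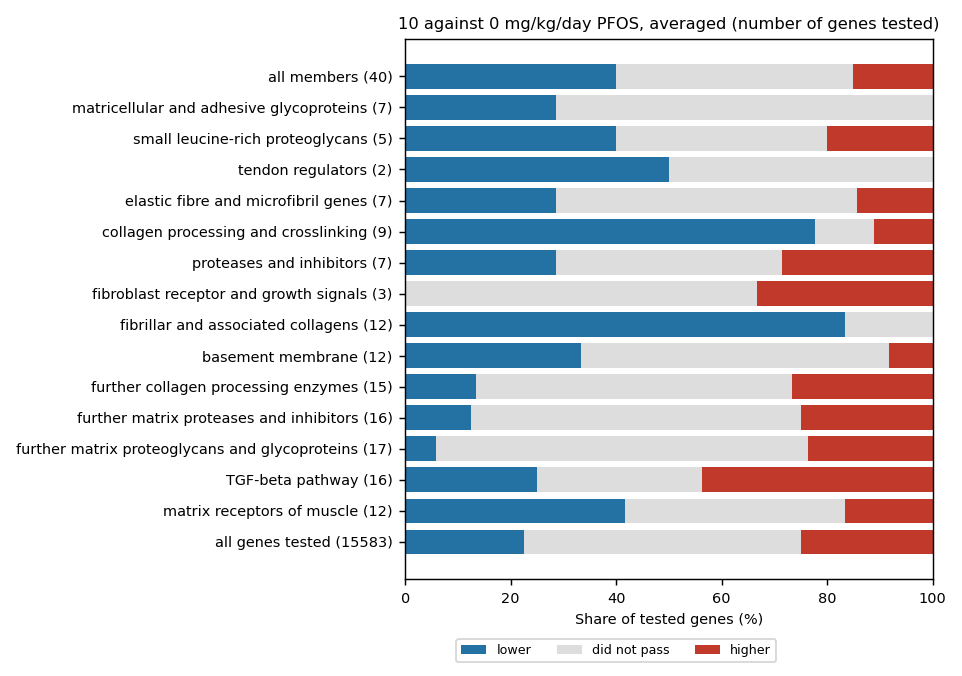
Share of tested genes (x axis, %) that were lower (blue), higher (red) or did not pass (grey) at 10 against 0 mg/kg/day PFOS, averaged over strata, for the 40 genes, their 7 roles, 7 further lists and all genes tested (number of genes in brackets). Collagens (10 of 12 lower) and collagen processing (7 of 9 lower) have the largest blue shares, against 22.5% of all genes.

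At 1 mg/kg/day no matrix gene passed against 0 mg/kg/day (edgeR quasi-likelihood test, Benjamini-Hochberg adjusted), nor did any of the 15583 genes (0%). At an unadjusted p under 0.05 there was 1 of the 40, P4ha2 (0.14 ± 0.06), and 3.71% of all genes. DESeq2 and limma voom called none of the 40 either. The medians of Serpinh1 (39.0 CPM), Loxl2 (7.57 CPM), Lox (5.46 CPM), Dcn (192.9 CPM) and Timp3 (56.2 CPM) at 1 mg/kg/day lay within the control range. Against 1 mg/kg/day, 10 mg/kg/day went with 16 lower and 6 higher of the 40 (46.9% of all genes changed, 22.2% lower and 24.7% higher). This comparison uses the same treated mice as that with 0 mg/kg/day. Side by side, the log2 fold changes against 1 and against 0 mg/kg/day were -1.08 and -0.91 for Loxl2, -0.79 and -0.72 for Serpinh1, 1.09 and 0.92 for Lox and 0.61 and 0.64 for Timp3. Thbs4 did not pass against 1 mg/kg/day (-0.43 ± 0.22), whereas Fn1 did (-0.65 ± 0.26).

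The strata differed in how many matrix genes passed at 10 against 0 mg/kg/day, a count that is not itself a test of a difference. Of the 40, 14 passed in hCYP2B6-Tg females (27.7% of all genes), 11 lower (13.5%) and 3 higher (14.2%). In hCYP2B6-Tg males 4 passed (18.5%), 3 lower (10.6%) and 1 higher (7.92%). Among Cyp2b-null mice, 6 passed in females (12.7%), 1 lower (6.87%) and 5 higher (5.83%), and 8 in males (15.8%), all lower (8.36%) and none higher (7.45%). In the same order of strata, log2 fold changes were below 0 for 28, 24, 14 and 30 of the 40 genes. In 10 genes the sign was negative in all 4 strata and in 7 it was positive in all 4, as in 22.8% and 25% of all genes. Below 0 throughout were Sparc, Lum, Fbn1, Mfap4, Loxl2, P4ha1, Serpinh1, Mmp2, Adamts1 and Ctgf. Above 0 throughout were Dcn, Fbln1, Fbln2, Lox, Mmp14, Timp3 and Pdgfra.

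In hCYP2B6-Tg females all 9 collagen-processing genes passed, 8 lower and Lox higher. The call for Plod2 (-1.40) ended on unscaled totals, with limma voom, without control replicate 1 (-0.81, edgeR adjusted p = 0.299) and without each treated library, and that for Lox without replicate 2 at 0 or at 10 mg/kg/day. Serpinh1 stood at 57.5, 32.2, 46.1 and 43.6 CPM in the 4 controls and at 16.2, 10.8, 17.0 and 22.2 CPM in the 4 treated mice. No treated value reached a control, and the fall was 1.44 ± 0.24 (log2; edgeR adjusted p = 2.93e-05). P4ha1 stood at 54.2, 41.9, 51.2 and 38.8 CPM without PFOS and at 20.9, 28.9, 16.8 and 27.9 CPM with 10 mg/kg/day, again without overlap (-0.98 ± 0.15, edgeR adjusted p = 1.24e-05). Lox rose without overlap from 8.73, 4.01, 5.82 and 6.53 CPM to 12.1, 19.5, 19.89 and 14.3 CPM (1.39 ± 0.45, edgeR adjusted p = 0.0179). In the other 3 strata P4ha1 did not pass, at -0.06 in hCYP2B6-Tg males, and at -0.15 and -0.04 in Cyp2b-null males and females. Over the 40 genes the hCYP2B6-Tg female libraries did not overlap for 10 lower and 4 higher genes, against 12.8% and 10.4% of all genes. Leaving out single libraries moved the count of 14 to between 10 and 17.

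In males of both genotypes Thbs4 and Tnmd passed as lower, Tnmd on few libraries. In Cyp2b-null males Thbs4 stood at 86.2, 34.9, 47.9 and 27.6 CPM in controls and at 16.7, 19.6 and 13.1 CPM at 10 mg/kg/day, without overlap (-1.58 ± 0.48, edgeR adjusted p = 0.018). In hCYP2B6-Tg males it went from 37.5, 48.8, 31.7, 37.9 and 104.0 CPM to 16.6, 15.2, 27.3 and 11.7 CPM, also without overlap (-1.55 ± 0.42, edgeR adjusted p = 0.00765). The latter call ended without the 2 libraries of most extreme values (-1.15, edgeR adjusted p = 0.0667), and the former without control replicate 1 (-1.16, edgeR adjusted p = 0.102), without replicate 1 or 3 at 10 mg/kg/day, without the 6 libraries and without the 2 of highest tendon sum. Tnmd in hCYP2B6-Tg males stood at 1.41, 0, 0.649, 0 and 8.80 CPM in controls and at 0.0676, 0.169, 0.656 and 0.153 CPM at 10 mg/kg/day. The groups overlapped, and without control replicate 5 Tnmd stood at -0.95 (edgeR adjusted p = 0.507) instead of -2.97. The call also ended with limma voom (-1.37) and without replicate 1, 2 or 4 at 10 mg/kg/day. It ended with the replicate block (-0.88) and without the 2 libraries of most extreme values too. Those 2 include control replicate 5, and the block, with no other replicate 5, in effect leaves it out. In Cyp2b-null males the Tnmd call (-3.50) ended without control replicate 1 or 3, without each treated library and without the 6 libraries, at -3.61 to -3.05. Cyp2b-null males had 8 lower genes and none higher: Thbs4, Lum, Tnmd, Fbn1, Mfap4, Loxl2, Serpinh1 and Adamts1. Their libraries did not overlap for 12 lower genes and for no higher gene, against 13.9% and 14.3% of all genes. The count of 8 calls rested on single libraries: it was 2 without replicate 1 of the controls, and 1, 4 and 3 without replicates 1, 2 and 3 at 10 mg/kg/day. Without the 6 libraries with Alb or Glycam1, which include replicate 3 at 10 mg/kg/day, it was 3. Without the 2 libraries of highest tendon sum, both male controls, Cyp2b-null males had 3 lower genes and 1 higher (1236 and 950 of all genes). With the same 2 left out, hCYP2B6-Tg males had 1 lower and 8 higher (1871 and 1614 of all genes). In hCYP2B6-Tg males the 4 calls were Thbs4, Kera and Tnmd lower and Timp3 higher, and Thbs4 was the only 1 of the 40 without overlap downwards, with none upwards (7.3% and 5.69% of all genes). With the replicate block 1 was lower and 7 higher, with limma voom 1 and 3, on unscaled totals 3 and 6, and without the 2 libraries of most extreme values none and 5. The count was 8 without control replicate 4 or 5 and 2 without replicate 2 or 4 at 10 mg/kg/day.

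In Cyp2b-null females the passing genes were mostly higher: Dcn, Fbln1, Mmp14, Timp1 and Timp3 rose and Plod1 fell. Dcn went from 188.3, 104.3, 107.9 and 144.5 CPM to 320.4, 393.2, 225.3 and 276.4 CPM without overlap (1.16 ± 0.34, edgeR adjusted p = 0.019), a call that ended without replicate 2 or 3 of the controls or 1 or 2 of the treated mice (1.01 to 1.12). Libraries did not overlap for 5 higher genes and 1 lower, against 7.07% and 7.28% of all genes. Timp1 rested on 3 counts in the 4 controls and 82 in the 4 treated mice, a ratio of counts per total of 27.45 with a 95% interval of 9.07 to 135.9 (exact, counting error only). Of these 82 counts 74 came from replicates 2 and 3, and replicate 4 had 0. Without the 6 libraries Timp1 stood at 3.75 (edgeR adjusted p = 0.0509). Serpinh1 had a log2 fold change of -0.08 there and P4ha1 of -0.04, whereas Plod1 stood at -0.35 ± 0.09 (edgeR adjusted p = 0.00553). Without the 6 libraries with Alb or Glycam1, 3 genes passed, all higher, and 3 passed without replicate 1 or 2 at 10 mg/kg/day.

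**Figure D5:**
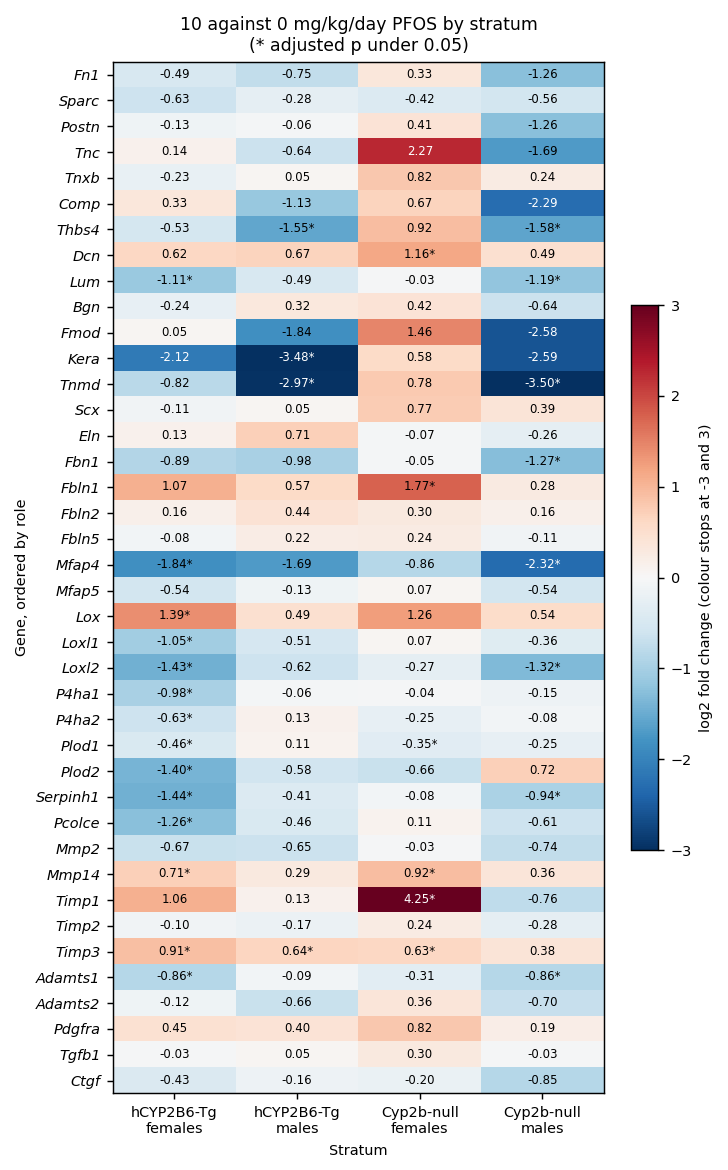
Log2 fold change at 10 against 0 mg/kg/day PFOS of the 40 matrix genes (rows, ordered by role) in each stratum (columns), as colour and number; asterisks mark an adjusted p under 0.05. The column of hCYP2B6-Tg females is blue through collagen processing except for Lox at 1.39, and that of Cyp2b-null females has 26 of 40 values above 0.

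Tests of the difference itself found little that passed. Between the sexes, the effect of 10 mg/kg/day differed for none of the 40 genes by edgeR (0.128% of all genes, 0.0578% lower and 0.0706% higher). At an unadjusted p under 0.05 there were 12 (9.56% of all genes). DESeq2 called 3 of the 40 (1 higher, 2 lower) and limma voom 2 (1 each way). Both tools also called more of all genes. DESeq2 called 39 higher and 53 lower, where edgeR called 11 higher and 9 lower. With limma voom 59 of all genes were higher and more than that lower. By edgeR 2 passed when replicate 2 of the hCYP2B6-Tg females on 10 mg/kg/day was left out, and 1 without replicate 3 of that group or Cyp2b-null female replicate 4 at that dose. Those nearest to the threshold were Thbs4 (female minus male 1.76 ± 0.43, edgeR adjusted p = 0.0897), Plod1 (-0.34 ± 0.09, edgeR adjusted p = 0.111) and P4ha2 (-0.46 ± 0.12, edgeR adjusted p = 0.114). Between the genotypes none of the 40 differed (0% of all genes), with 4 at an unadjusted p under 0.05 (8.84% of all genes), and none by DESeq2 or limma voom. P4ha1 had the lowest p of these 4 at -0.42 ± 0.15 (hCYP2B6-Tg minus Cyp2b-null, edgeR adjusted p = 0.449). Cyp2b-null females were also compared with the mean of the other 3 strata, a comparison added after the values were seen. Thbs4 alone of the 40 passed (2.15 ± 0.50, edgeR adjusted p = 0.0463; 0.334% of all genes, 0.199% lower and 0.135% higher), being at 23.5, 19.3, 25.7 and 23.9 CPM in controls and 44.3, 74.3, 36.9 and 19.97 CPM in treated Cyp2b-null females. It no longer passed without the 2 libraries of highest tendon sum, nor without the 6 libraries with Alb or Glycam1, and with single libraries left out no gene passed in 31 of 48 cases.

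Without PFOS the genotypes differed for none of the 40 genes (edgeR, 0% of all genes), nor by DESeq2, and none passed with limma voom. None had an unadjusted p under 0.05 by edgeR, against 3.43% of all genes. The sexes differed for 2 lysyl hydroxylases, both higher in females (7.59% of all genes differed, 2.86% higher and 4.73% lower). Plod1 stood at 35.3 to 43.5 CPM in hCYP2B6-Tg females and 36.2 to 40.9 CPM in Cyp2b-null females, above all males at 24.7 to 31.8 and 26.5 to 32.2 CPM (female minus male 0.41 ± 0.06, edgeR adjusted p = 5.75e-06). Plod1 at 10 mg/kg/day was 26.5 to 29.2 CPM in hCYP2B6-Tg females, within the range of the male controls. Plod2 was higher by 1.71 ± 0.37 (edgeR adjusted p = 0.00197), with values of 3.34 to 21.5 CPM in females and 1.36 to 7.90 CPM in males that overlapped. DESeq2 also called Tnmd (-1.89, adjusted p = 0.0371) and Timp3 (-0.35, adjusted p = 0.0494) as lower in females. In all, 14 of the 40 had an unadjusted p under 0.05 (20.8% of all genes). The 2 calls became 4 without hCYP2B6-Tg male replicate 2, and 5 without replicate 4 or 5. Without the 2 libraries of highest tendon sum, both of them male controls, 10 of the 40 were higher in females and none lower (687 and 850 of 15562 genes). These males were picked for a high sum that includes some of the 40 genes. Leaving them out lowers the male level of those genes in advance, so no sex difference can be read from this count.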

How the data were processed

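Raw counts of reads per gene, as the authors deposited them in 1 table, covered 54532 genes in 48 gastrocnemius libraries, and all 48 columns were matched to samples by library name. The submitters' processing notes name the aligner HISAT2 and the build GRCm39. The sources used here do not give the counting program, annotation or use of strand. The table's coordinates match GRCm38 (98.3% of 54495 identifiers shared with GENCODE vM21, and 39 of the 40 genes; Lox differs by its start). Genes were filtered with filterByExpr and scaled by TMM in edgeR 4.0.16 (R 4.3.3), leaving 15583. Quasi-likelihood models with 1 mean per group (36 residual degrees of freedom; between-mouse coefficient of variation 23.5%) were tested two-sided, adjusted over all genes by Benjamini-Hochberg, threshold 0.05. Averages weight the 4 strata equally. The script was tested on simulated data. Settings tried beside this were DESeq2 size factors, library totals without scaling, 2 other filters, a replicate block, DESeq2 1.42.0, limma 3.58.1 voom, and left-out libraries. By rule, up to 4 members of each role that passed with the smallest p (or, with fewer than 2, its most abundant member), up to 5 in other comparisons and up to 3 of each further list are described; further names were picked after their values were seen. List symbols Ccn1 and Ccn5 were matched to the older Cyr61 and Wisp2 through RefSeq synonyms. Members, lists and the left-out libraries were chosen with earlier results of these data known, and the comparison of Cyp2b-null females with the other strata was added after seeing the data. Of 73 pairs of libraries within groups none agreed within sampling noise (lowest chi-square per degree of freedom 7.85). Each p-value reflects variation among mice.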

Additional observations from a re-analysis of the deposited data

Results flagged for a closer look

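Among the 19 genes described by smallest p or role, 209 gene and group combinations of 4 or 5 mice were searched for a single mouse far from the others, and 19 were found. Chance alone gives about 1 in 20 for normally distributed values. CPM need not follow that distribution, least of all near 0, and genes of 1 library are not independent, so no excess over chance can be read from this. Of these, 6 belonged to hCYP2B6-Tg male replicate 5 at 0 mg/kg/day, always as the highest of 5 mice: Sparc at 293.5 CPM (next 135.9), Thbs4 at 104.0 CPM (next 48.8), Kera at 8.42 CPM (next 1.84), Tnmd at 8.80 CPM (next 1.41), Mfap4 at 6.39 CPM (next 1.76) and Fbln1 at 13.7 CPM (next 2.19). This library had 1403 CPM of summed fibroblast markers and 388 CPM of summed tendon markers, and without it the log2 fold changes of Tnmd and Kera at 10 against 0 mg/kg/day were -1.12 and -1.47, and both passed.

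At 0 mg/kg/day, Dcn was high in hCYP2B6-Tg female replicate 1 (222.9 CPM) and Mfap4 in Cyp2b-null female replicate 4 (2.88 CPM). In Cyp2b-null males at this dose Plod1 was low in replicate 2 (26.5 CPM) and Adamts1 low in replicate 1 (30.7 CPM). At 1 mg/kg/day, Sparc was high in Cyp2b-null female replicate 4 (168.7 CPM), Kera high in Cyp2b-null female replicate 3 (4.66 CPM) and low in Cyp2b-null male replicate 4 (0.370 CPM). In hCYP2B6-Tg males at 1 mg/kg/day Thbs4 was high in replicate 2 (51.7 CPM) and Dcn low in replicate 1 (112.9 CPM). At 10 mg/kg/day, Cyp2b-null female replicate 2 was high in Kera (2.57 CPM) and Scx (11.7 CPM), hCYP2B6-Tg male replicate 1 in Kera (0.676 CPM) and hCYP2B6-Tg female replicate 4 in Adamts1 (43.5 CPM).

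The effect of 10 mg/kg/day on Thbs4 differed between Cyp2b-null females and the mean of the other 3 strata by 2.15 ± 0.50 on the log2 scale (edgeR adjusted p = 0.0463), in a comparison chosen after the values were seen.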

How the results depend on the processing

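In the averaged comparison of 10 with 0 mg/kg/day, 22 of the 40 genes changed, 16 lower and 6 higher. DESeq2 size factors, no filter, a stricter filter and DESeq2 each kept the same 22 genes. Library totals without scaling gave 8 lower and 10 higher. Leaving out each library in turn gave 22 to 24 changed, 16 to 17 lower and 6 to 8 higher, and none of the 22 lost its call, while Fn1, Fbln2, Plod2, Timp1 or Adamts2 passed in some. Against 1 mg/kg/day the count was 21 to 23, and for 1 against 0 mg/kg/day 0 each time. The left-out ranges were 10 to 17 in hCYP2B6-Tg females, 2 to 8 in hCYP2B6-Tg males, 3 to 9 in Cyp2b-null females and 1 to 9 in Cyp2b-null males. They were 0 to 2 for the sex difference in effect, 0 each time for the genotype difference in effect and for the genotypes at 0 mg/kg/day, 2 to 5 for the sexes at 0 mg/kg/day, and 0 to 3 for Cyp2b-null females against the other strata.

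Counts that moved by more than 1.5 times were these. In hCYP2B6-Tg males the 4 calls (1 higher, 3 lower) became 9 without scaling (6 higher), 8 with the replicate block (7 higher), 7 with DESeq2 (2 higher) and 9 without the 2 libraries of highest tendon sum (8 higher). In Cyp2b-null females the 6 became 10 without scaling, 3 without the 6 libraries with Alb or Glycam1 and 10 without the 2 libraries with most extreme values. In Cyp2b-null males the 8 became 5 without scaling, 3 without the 6 libraries and 4 without the 2 of highest tendon sum. The sex difference in effect went from 0 to 3 with DESeq2 and to 2 with limma voom, and both tools also called more of all genes there than edgeR. The sexes at 0 mg/kg/day went from 2 to 5 with the replicate block, 4 with DESeq2 (2 higher and 2 lower in females), 5 with limma voom and 10 without the 2 of highest tendon sum. The call for Cyp2b-null females against the other strata went from 1 to 0 with the replicate block, without the 6 libraries and without the 2 of highest tendon sum. The cause was not tested.

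Mice with the same number did not deviate together on average (correlations of -0.417 to 0.632 over 253 pairs, mean -0.00926, against 0.00319 for different numbers). A mean over pairs cannot exclude that some of the numbers share a batch. With the replicate block 15 genes were lower and 8 higher, Tnmd did not pass (-1.10, edgeR adjusted p = 0.0519), and Fbln2 and Timp1 passed as higher. Only the undosed hCYP2B6-Tg males had a replicate 5, so the block fits that library exactly and in effect leaves it out. Leaving out this library alone also gave 8 higher genes, with Fbln2 and Timp1 added, though Tnmd then passed. The block is therefore not a setting separate from that omission. The 6 libraries, the 2 of highest tendon sum and the 2 of most extreme values were picked after seeing the data. Low counts limit Kera, Tnmd, Timp1 and Comp, whose levels lay near 3 counts in several libraries.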
